A study of Mus musculus with 8 samples.

Results

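The immature neuron and neural progenitor genes examined here are Dcx, Sox4, Sox11, Tubb3, Tubb2b, Stmn1, Nes, Vim and Fabp7, 9 of the 55450 genes in the bulk count table. The list was set by gene name, with earlier results of these data known, and all 9 were found in both the bulk and the single-cell table. The study profiled the median eminence (ME), the floor of the third ventricle where hypothalamic axons meet the pituitary portal vessels. Its wild-type (WT) single-cell library pooled the ME of 10 female mice, labelled C57BL/6 and given as C57BL/6N in the study's methods, and held 990 cells. Its 7 bulk libraries, 1 mouse each by the study's methods, came from 3 WT and 4 mutant mice of the same labelled strain. The mutants, labelled Rax::BrafV600E, carried the constitutively active kinase BrafV600E in cells that express the inducible recombinase Rax-CreERT2. Rax is a tanycyte gene, so recombination follows Rax activity at the time of tamoxifen, and with a reporter the study also saw scattered labelled cells of neuronal shape in nearby hypothalamic nuclei. The labels give the age of all mice as 2 months, whereas the methods place the bulk collection at 2 months after tamoxifen. Whether the 3 control mice carried the driver or the Braf allele is not given in the sources used here.

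Neural progenitors in the brain line the ventricles and express intermediate filaments and a lipid carrier that neurons switch off. Nestin (Nes) and vimentin (Vim) build those filaments, and Fabp7 is the brain fatty acid binding protein of radial glia. Cells that leave the progenitor pool turn on the transcription factors Sox4 and Sox11, and then proteins of the growing microtubule network. Among the latter, doublecortin (Dcx) stabilises microtubules in migrating neuroblasts, Tubb3 and Tubb2b are beta-tubulins of neurons and their precursors, and stathmin (Stmn1) binds free tubulin. Tanycytes, the elongated ependymal cells of the ME, keep nestin and vimentin in the adult. Several of the same genes are also known in oligodendrocyte precursor cells (OPCs), the dividing glia that give rise to myelinating oligodendrocytes.

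All 9 are protein-coding genes in GENCODE M21 on GRCm38. They lie with Dcx at chrX:143855842-143933311, Sox4 at chr13:28948919-28953713, Sox11 at chr12:27334264-27342574, Tubb3 at chr8:123411424-123422015, Tubb2b at chr13:34126748-34130466, Stmn1 at chr4:134468320-134473843, Nes at chr3:87971078-87980451, Vim at chr2:13573927-13582826 and Fabp7 at chr10:57784881-57788450. The sequence before the transcription start is shown for 5 members because the single-cell data split them, with Dcx, Sox4, Sox11 and Fabp7 highest in OPC-like cells and Nes highest in tanycyte-like cells. Windows of 250 bases before the RefSeq start were read for 7 of the 9 members on GRCm38.p6, and only the stretch outside the GENCODE gene is printed, on the strand of the gene. Capitals mark the 6 short motifs searched on both strands. These were the SOX-type motif ACAAAG, a second SOX-type motif, ACAATG, the E-box motif CAGCTG, the GC box motif GGGCGG, the TATA box motif TATAAA and the CCAAT box. The stretches lie at chrX:143933312-143933469 (minus strand), chr13:28953714-28953949 (minus), chr12:27342719-27342968 (minus), chr10:57784673-57784880 (plus) and chr3:87970843-87971077 (plus).
Dcx: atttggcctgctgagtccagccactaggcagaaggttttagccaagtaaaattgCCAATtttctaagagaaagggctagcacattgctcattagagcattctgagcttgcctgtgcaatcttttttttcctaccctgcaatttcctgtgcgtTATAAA
Sox4: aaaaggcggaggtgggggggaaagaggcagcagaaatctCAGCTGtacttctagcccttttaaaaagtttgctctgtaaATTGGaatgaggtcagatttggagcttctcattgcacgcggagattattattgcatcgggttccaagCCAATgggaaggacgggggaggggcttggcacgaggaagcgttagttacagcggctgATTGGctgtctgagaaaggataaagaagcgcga
Sox11: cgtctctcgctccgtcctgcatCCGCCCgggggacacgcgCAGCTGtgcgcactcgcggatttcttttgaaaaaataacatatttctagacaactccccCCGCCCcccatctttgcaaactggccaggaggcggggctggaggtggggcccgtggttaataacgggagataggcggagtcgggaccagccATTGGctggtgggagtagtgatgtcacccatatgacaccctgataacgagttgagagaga
Fabp7: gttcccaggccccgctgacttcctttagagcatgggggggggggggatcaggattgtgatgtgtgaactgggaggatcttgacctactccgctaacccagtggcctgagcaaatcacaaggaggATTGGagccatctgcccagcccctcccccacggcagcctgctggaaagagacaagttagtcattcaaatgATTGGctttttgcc
Nes: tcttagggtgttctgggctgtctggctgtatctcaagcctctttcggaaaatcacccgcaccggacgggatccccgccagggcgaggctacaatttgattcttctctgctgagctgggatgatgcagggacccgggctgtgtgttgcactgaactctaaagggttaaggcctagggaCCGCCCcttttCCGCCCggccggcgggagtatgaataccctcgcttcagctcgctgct

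Counted over the whole 250-base windows of these starts, Sox4 held 4 CCAAT motifs, 3 of them in the printed stretch, Fabp7 held 2, Dcx and Sox11 held 1 each, and Nes held none. CCAAT occurred in 33.8% of all 32851 RefSeq promoter windows of that length. Sox4 and Sox11 each held 1 CAGCTG, a motif of 13.0% of windows. Sox11 and Nes each held 2 GGGCGG, a motif of 32.7% of windows, and Dcx alone of the 5 held TATAAA, which 12.4% of windows hold. ACAAAG (16.5% of windows) and ACAATG (10.7%) were in none of these 5 windows. RefSeq gives Dcx a second start, whose window holds ACAAAG 8 bases before that start, inside the GENCODE gene and so not printed.

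The bulk question is how the members differ between mutant and WT ME. The study describes the mutant material as tumour tissue, taken by microdissecting the ME region. It reports an enlarged ME with a papillary craniopharyngioma-like tumour at that time after tamoxifen. The groups therefore differ in tissue as well as genotype, and these cannot be told apart here. Library totals ran from 8348930 to 13816596 counts in WT and from 4928456 to 10754670 in mutants, so 1 CPM, a count per 1000000 counts of the scaled library, stood for 5.60 to 11.7 reads. The shallower libraries detected more genes, with 17874 to 34942 in WT and 25910 to 40852 in mutants. WT 2 and WT 3 detected the fewest, 21986 and 17874, so a count of 0 in them does not show absence. Y-linked transcripts (Ddx3y, Uty, Kdm5d and Eif2s3y) summed to 1688, 2075 and 2837 counts in WT 1 to 3 and to 1610 and 1767 counts in mutants 1 and 2, but to 4 counts in each of mutants 3 and 4. Xist, the X-inactivation transcript, had 800 and 747 counts in mutants 3 and 4 and 15 or fewer in the other 5 libraries. The labels give no sex for the bulk mice. By these counts mutants 3 and 4 came from females and the other 5 libraries from males, whereas the single-cell pool was female. Sex and genotype thus partly coincide in bulk. Results are therefore also given for the 5 libraries with Y-linked counts, a choice made after seeing the data. Braf was at a mean of 21.2 CPM in WT and 22.3 CPM in mutants (log2 fold change 0.07, SE 0.43), but a gene count does not show the point mutation. In bulk tissue, fewer cells of a type and less RNA per cell cannot be told apart.

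Of the members, Dcx, Sox11, Tubb2b and Vim were higher in every mutant than in every WT library, Fabp7 and Sox4 had higher means with overlapping libraries, and Tubb3, Stmn1 and Nes were near equal. No member passed the test across all genes. edgeR's quasi-likelihood test with Benjamini-Hochberg adjustment called 0 of the 9 at an adjusted p under 0.05, and 0 of 20466 genes tested in all (0%). The smallest adjusted p over all genes was 0.0541. At an unadjusted p under 0.05, 5 of the 9 members were higher in mutants and 0 lower, against 4.23% of all genes tested that were higher. With WT 1 left out, this background rose to 5172 of 23560 genes tested, and the members stayed at 5. DESeq2 called 3 members (Dcx, Sox11 and Tubb2b), against 376 of the 24560 genes it gave an adjusted p (1.53%), and limma-voom called 0 of the members and 0 genes in all. The study itself singled out Dcx, as a differentiation marker, and Fabp7, as a tanycyte marker, from these libraries. The direction of both is therefore not independent evidence.

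Dcx, the neuroblast marker, had 18, 8 and 0 counts in WT 1 to 3 and 75, 87, 68 and 127 in mutants 1 to 4. These are 2.03, 0.711 and 0 CPM against 7.49, 9.07, 11.4 and 22.7 CPM. The lowest mutant stood above the highest control, and mutant 4 was the highest of all. The means were 0.915 ± 1.03 CPM (SD, n = 3) in WT and 12.7 ± 6.88 CPM (SD, n = 4) in mutants. The fitted log2 fold change was 3.79 (SE 1.10), with an interval of 1.37 to 6.22 and an edgeR adjusted p of 0.434. Among the libraries with Y-linked counts alone, the log2 fold change of Dcx, an X-linked gene (chrX:143855842-143933311), was 3.17 (SE 1.59).

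Sox11, a transcription factor of newly formed neurons, was the most even of the members that separated. It was at 9.94, 12.1 and 12.6 CPM in WT and at 44.96, 42.9, 31.9 and 46.8 CPM in mutants. Every mutant was over 30 CPM and every control under 13 CPM. The log2 fold change was 1.85 (SE 0.33) with an edgeR adjusted p of 0.143, against a DESeq2 adjusted p of 0.000177. Its paralog Sox4, at 3.62, 6.40 and 2.22 CPM in WT and 9.99, 5.84, 7.52 and 17.2 CPM in mutants, overlapped because WT 2 lay above mutant 2. The log2 fold change of Sox4 was 1.31 (SE 0.64), and its interval of -0.10 to 2.72 held 0.

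Tubb2b, a beta-tubulin of migrating neurons, had the smallest p of the members and ranked 13 among all genes tested. It was at 28.3, 42.7 and 34.4 CPM in WT and at 172, 96.0, 163 and 184 CPM in mutants. The lowest mutant, mutant 2, stood well above the highest control, WT 2. The log2 fold change was 2.13 (SE 0.33), with an edgeR adjusted p of 0.0906 and a DESeq2 adjusted p of 8.32e-06. Of the 50-base stretches of Tubb2b transcripts, 36.9% also occur in other genes, most often Tubb2a, so reads could be split between both or lost, depending on a counting step not given in the sources used here. Tubb2a itself was at 232, 240 and 275 CPM in WT and at 456, 563, 608 and 411 CPM in mutants, also without overlap, with a smaller log2 fold change of 1.03 (SE 0.27).

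The other tubulin and its binding partner did not separate. Tubb3, the beta-tubulin used to identify neurons, was at 184, 247 and 263 CPM in WT and at 171, 353, 238 and 222 CPM in mutants. Its log2 fold change was 0.09 (SE 0.31), with an interval of -0.60 to 0.78. Stmn1 was at 204, 291 and 289 CPM in WT and at 243, 267, 207 and 234 CPM in mutants, with a log2 fold change of -0.13 (SE 0.26) and an interval of -0.72 to 0.45. For Stmn1, 18.9% of 50-base stretches are shared, most often with Gm11223.

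Among the progenitor genes, Fabp7 and Vim had higher means in mutants and Nes did not. Fabp7 was at 21.4, 25.1 and 100.3 CPM in WT and at 211, 86.5, 172 and 299 CPM in mutants. WT 3 lay above mutant 2, and the groups overlapped through these libraries alone. The log2 fold change of Fabp7 was 1.97 (SE 0.60), with an edgeR adjusted p of 0.442, and it was 3.05 (SE 0.48) without WT 3. Vim was at 226, 282 and 116 CPM in WT and at 423, 346, 480 and 341 CPM in mutants, a log2 fold change of 0.93 (SE 0.34) with an edgeR adjusted p of 0.520. Nes, at 46.8, 25.2 and 33.5 CPM in WT and 47.9, 40.4, 44.3 and 22.9 CPM in mutants, had its lowest value in a mutant, and its log2 fold change was 0.15 (SE 0.36; interval -0.64 to 0.93).

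**Figure D1:**
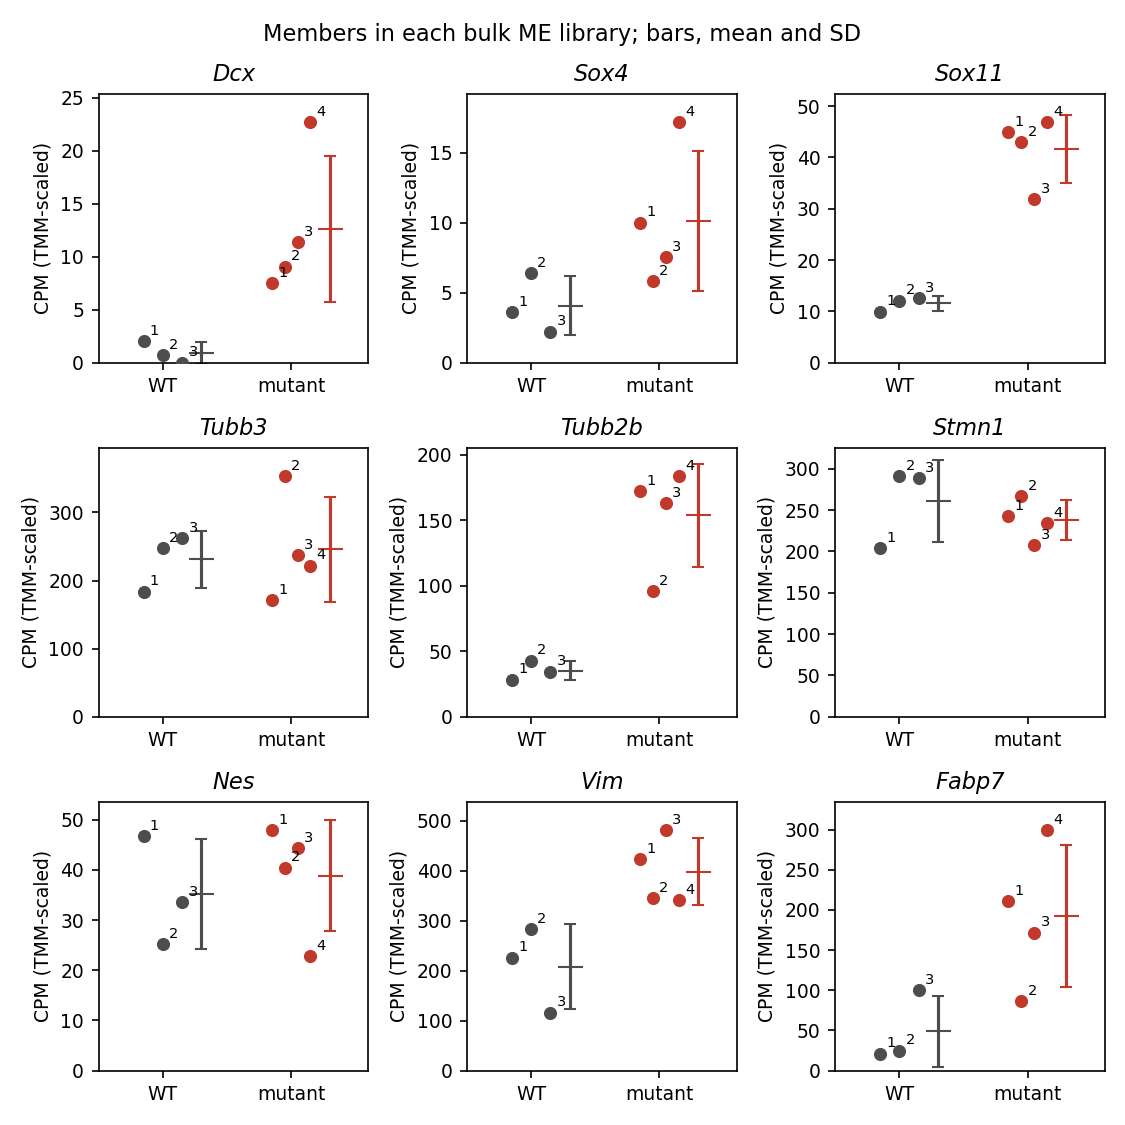
Each panel plots one member's CPM (counts per 1000000 of the TMM-scaled library, linear axis from 0) in the 3 WT and 4 mutant bulk libraries, numbered by replicate, with the mean and SD beside the points. The WT and mutant points of Dcx, Sox11, Tubb2b and Vim do not overlap, while those of Tubb3, Stmn1 and Nes are mixed.

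Over the whole table, all 4 mutants lay above all 3 WT libraries for 5.83% of genes tested and below them for 3.18%. Among the members, 4 of 9 lay above and 0 below. The median log2 fold change was 1.31 over the 9 members and 0.13 over all genes tested, with 8 of 9 members positive against 11607 of 20466 genes. The list was chosen with earlier results of these data known, so these counts and medians are not independent evidence. Where 10 counts were asked of every library, Dcx was no longer tested. The median was then 1.17 over 8 members and -0.006 over all genes. Within the 5 libraries with Y-linked counts, 2 of the 9 members were higher at an edgeR unadjusted p under 0.05, against 1.22% of the 19640 genes tested there. In these libraries 0 members and 0 genes in all were called, and the log2 fold changes of Sox11 and Tubb2b were both 1.93 (SE 0.46 and 0.42).

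**Figure D2:**
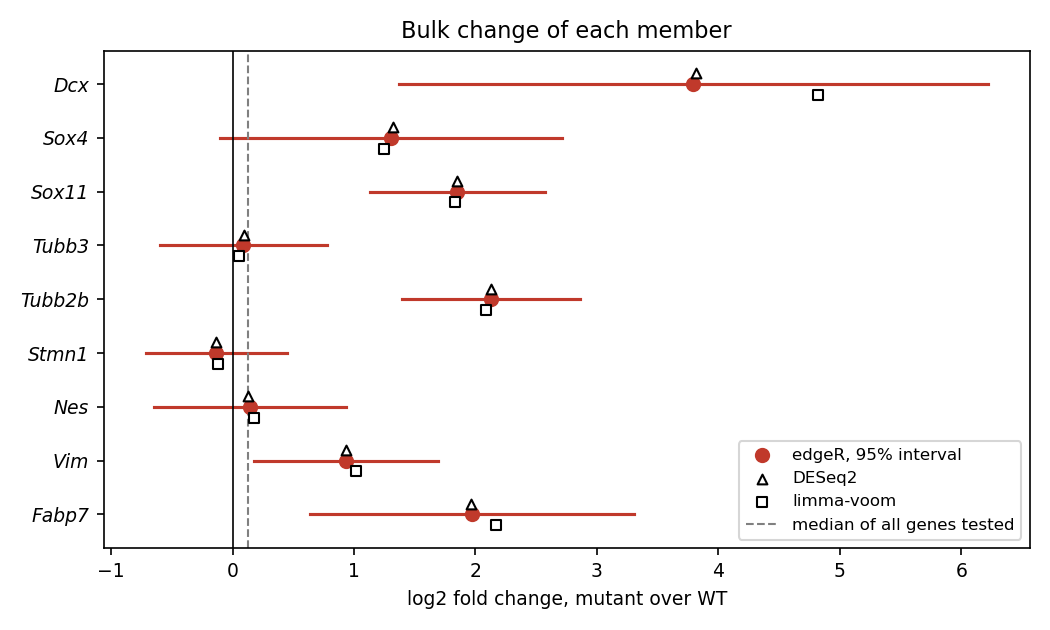
The log2 fold change of mutant over WT is shown for each member, with edgeR's 95% interval as a line, the DESeq2 (triangle) and limma-voom (square) estimates, and the median of all genes tested as a dashed line. The intervals of Dcx, Sox11, Tubb2b, Vim and Fabp7 lie above 0, and those of Sox4, Tubb3, Stmn1 and Nes hold 0.

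Scaled by exon length, the order of the members' means differed between the groups, but the libraries of several members overlapped. In WT, Stmn1 (136 ± 25.9 CPM per kb, SD, n = 3) and Tubb3 (124 ± 22.4) were the highest and their libraries overlapped. Vim (43.9 ± 17.8), Fabp7 (39.1 ± 35.6) and Tubb2b (15.3 ± 3.17) followed, each overlapping the next. Nes (5.48 ± 1.69) came next, then Sox11 (1.39 ± 0.168) overlapping Sox4 (0.851 ± 0.443), and Dcx was the lowest at 0.0723 ± 0.0816. In mutants, Fabp7 (154 ± 70.6 CPM per kb, SD, n = 4) stood first but overlapped Tubb3 (132 ± 41.1), and Dcx was again the lowest at 1.001 ± 0.544. The mutant order of Fabp7, Tubb3 and Stmn1 (124 ± 12.9) was not resolved beyond the spread. Mutant Fabp7, from 69.2 to 239 CPM per kb, also overlapped Vim (71.8 to 101) and Tubb2b (41.8 to 80.0).

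Other genes of the same programmes were read from lists chosen alongside the members. Of all 20466 genes tested, 865 were higher and 796 lower at an unadjusted p under 0.05 with edgeR, the background for each list. Of 41 further immature neuron genes, 34 were tested and edgeR called 0, with 11 higher and 2 lower at an unadjusted p under 0.05 and a median log2 fold change of 0.71. Against 5.83% and 3.18% of all genes tested, all mutants lay above all controls for 7 of these 34 and below for 2. The extremes were Dlx2 and Dlx1, homeobox factors of GABAergic neuron precursors, and, in the other direction, Neurod1 and Insm1, factors of differentiating neurons and endocrine cells. Dlx2 had 2, 0 and 0 counts in WT and 21, 140, 12 and 33 in mutants, and Dlx1 had 6, 14 and 0 counts in WT and 11, 116, 32 and 27 in mutants. Mutant 2 held most of the reads of both, and the groups overlapped in CPM for Dlx1 and not for Dlx2, another gene the study singled out. Neurod1 had 119, 19 and 0 counts in WT and 17, 15, 12 and 2 in mutants. Insm1 was at 8.59, 4.62 and 8.30 CPM in WT and at 2.10, 2.81, 2.51 and 2.68 CPM in mutants, and its log2 fold change was -1.50 (SE 0.66).

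Of 30 further progenitor genes, 29 were tested and edgeR called 0, with 5 higher and 2 lower at an unadjusted p under 0.05 and a median log2 fold change of 0.38. Ptprz1, a receptor phosphatase of radial glia and OPCs, was also singled out by the study, as a tanycyte marker. It was at 46.1, 62.1 and 64.0 CPM in WT and at 220, 334, 292 and 369 CPM in mutants. Its log2 fold change was 2.40 (SE 0.31) with an edgeR adjusted p of 0.0678. Nr2e1, an orphan receptor of neural stem cells, had 14, 10 and 0 counts in WT and 84, 37, 38 and 36 in mutants. Hes1 and Hes6, a Notch target and its relative, were the lowest. Hes1 was at 27.0, 37.4 and 104 CPM in WT and at 38.2, 9.07, 6.01 and 6.97 CPM in mutants. Hes6 was at 118, 122 and 179 CPM in WT and at 109, 48.8, 43.3 and 45.8 CPM in mutants, with no overlap.

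The lists of tubulin and stathmin relatives, mature neuron genes and proliferation genes also gave 0 edgeR calls. Stmn2, Stmn3 and Stmn4 are in both the tubulin and stathmin list and the immature neuron list. Of 9 tubulin and stathmin relatives, 1 (Tubb2a) was higher at an unadjusted p under 0.05, with a median log2 fold change of 0.42. Tubb1 was the highest (2.71, SE 1.81) but had 12 or fewer counts in any library, and Stmn4 (-0.46, SE 0.43) and Tubb4a (-0.32, SE 0.36) were the lowest. Of 20 mature neuron genes tested, 3 were higher and 1 lower, with a median of 0.46. The neuropeptide genes Ghrh (3.08, SE 0.87) and Pomc (1.79, SE 1.14) led, and the noncoding Meg3 (-1.33, SE 0.30) and the neurofilament Nefh (-0.96, SE 0.54) were the lowest. Pomc is also made in the pituitary, and it ranged from 353 to 6421 CPM within WT alone. Of 21 proliferation genes, 2 were higher and 0 lower, with a median of 0.60. The mitotic genes Nusap1 (2.71, SE 1.37) and Top2a (2.52, SE 1.24) had the largest values, neither at an unadjusted p under 0.05, and the S-phase genes Tyms (-0.76, SE 0.44) and Pcna (-0.66, SE 0.37) were the lowest.

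Markers of other cells moved with the groups as well. Over all genes tested, all mutants lay above all controls for 5.83% and below for 3.18%. All 7 OPC markers had positive log2 fold changes, with a median of 2.74, and 5 of the 7 lay higher in every mutant than in every control. Their summed level was 106, 143 and 78.8 CPM in WT and 623, 240, 280 and 811 CPM in mutants. Of the 7, Pdgfra had the smallest log2 fold change (0.74, SE 0.36) and C1ql1 the largest (5.20, SE 1.54). Summed oligodendrocyte markers were at 5966 to 18815 CPM in WT and 3725 to 7362 CPM in mutants, with 0 of 8 positive. VLMC markers were at 1167 to 2916 CPM in WT and 380 to 803 CPM in mutants, and astrocyte markers were at 426 to 777 CPM in WT and 934 to 1119 CPM in mutants. Pituitary markers other than those of the pars tuberalis were at 356 to 8875 CPM in WT, highest in WT 1, and at 61.7 to 544 CPM in mutants. Pars tuberalis markers (1063 to 4376 CPM in WT, 206 to 991 CPM in mutants) and endothelial markers (162 to 252 CPM against 65.0 to 133 CPM) did not overlap between the groups. The summed tanycyte markers overlapped, at 1099 to 1656 CPM in WT and 1053 to 1839 CPM in mutants, with 1 of the 8 higher in every mutant. The summed neuron markers also overlapped (1673 to 1752 CPM against 1153 to 2010 CPM), with 2 of the 10 higher and 1 lower in every mutant. These 10 are also part of the mature neuron list above, and 7 of them had positive log2 fold changes, with a median of 0.70. The 1 lower was Meg3, which in the single-cell library was highest in tanycyte-like cells. The part of these cell types in the members' differences was not tested.

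The single-cell library shows which WT cells carry the members. It held 9846289 unique molecular identifiers (UMIs, each 1 captured transcript), with a median of 7832 per cell. The members and the immature neuron, progenitor, tubulin and stathmin lists were left out of the clustering, but the mature neuron and proliferation lists were not. The cells fell into 11 clusters, 10 of which were named after cell types by 3 or more markers. No cluster was named after astrocytes, so the members' levels in astrocytes could not be read from this library. As the library is single, no test was run, and the exact Poisson 95% intervals given after each CPM reflect counting alone. OPC-like cells (60) carried 7 of 7 OPC markers and were led by C1ql1, Top2a and Ccnb1, the last pair being cell cycle genes. Tanycyte-like cells (179) carried 7 of 8 tanycyte markers. Neuron-like cells (49) carried 8 of 10 neuron markers and were the deepest, with a median of 31422 UMIs.

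Of the 9 members, 5 (Dcx, Sox4, Sox11, Tubb2b and Fabp7) had their highest CPM in OPC-like cells, where 17.6% of all 13125 genes with 20 or more UMIs are highest. Tubb3 and Stmn1 were highest in neuron-like cells (15.4% of genes), Nes in tanycyte-like cells (8.59%) and Vim in NK or T cell-like cells (8.57%). The count of 1 member highest in a cluster with tanycyte markers held in all 7 alternative settings. The count of 5 highest in a cluster with OPC markers held in 6 of these settings. At resolution 1.2 they were split, with Dcx, Sox11 and Fabp7 highest in an unnamed cluster and Sox4 and Tubb2b in the OPC-like one. The count was 4 when each cell was thinned to 1000 UMIs. The 2 Dcx UMIs left there were in pars tuberalis cell-like cells, and Stmn1 was highest in oligodendrocyte-like cells.

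Among the clusters of this library, none of them astrocyte-like, Fabp7 was nearly confined to OPC-like cells. These held 474 of its UMIs, 90.5% of all, at 672 CPM (613 to 736). The next cluster, pars tuberalis cell-like, was at 21.7 CPM (10.4 to 39.9). Fabp7 was found in 86.7% of OPC-like cells (median 10554.5 UMIs) and in 3.91% of tanycyte-like cells (median 7892 UMIs). Its tanycyte-like level of 3.84 CPM (1.54 to 7.92) was like that in erythrocyte-like cells, 3.34 CPM (1.34 to 6.87) and 2.90% of cells (median 7747 UMIs). Ependymal cell-like cells were at 15.0 CPM (5.51 to 32.7), with Fabp7 in 10.9% of cells (median 8506.5 UMIs). Whether the few tanycyte-like UMIs are background was not tested.

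Tubb2b followed the same pattern with a broader base. OPC-like cells stood at 1607 CPM (1515 to 1703) and held 72.0% of its UMIs. Neuron-like cells were at 168 CPM (147 to 192) and pars tuberalis cell-like cells at 139 CPM (107 to 177), intervals that overlapped. Tanycyte-like cells were at 12.1 CPM (7.57 to 18.3), which overlapped the erythrocyte-like 8.58 CPM (5.08 to 13.6).

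Dcx was rare, with 26 UMIs in OPC-like cells and 23 in neuron-like cells. The levels were 36.9 CPM (24.1 to 54.0) in OPC-like, 17.4 CPM (7.49 to 34.2) in pars tuberalis cell-like and 17.2 CPM (10.9 to 25.8) in neuron-like cells, and these intervals overlapped. Dcx was found in 28.3% of OPC-like cells, 38.8% of neuron-like cells, 1.68% of tanycyte-like cells and 0.415% of erythrocyte-like cells. After each cell was thinned to 1000 UMIs, 0 cells of the OPC-like and of the neuron-like cluster kept a Dcx UMI, so shares cannot be compared across these depths. All 17 OPC-like cells with Dcx also carried Tubb2b and Fabp7, and 15 of them carried Pdgfra. Of the OPC-like cells without Dcx, 95.3% carried Tubb2b, 81.4% Fabp7 and 51.2% Pdgfra. Top2a was in 17.6% of the OPC-like cells with Dcx and 23.3% of those without, and Gpr17 in 70.6% and 83.7%. Of the 19 neuron-like cells with Dcx, 17 carried Tubb3 and 2 carried Fabp7, against 83.3% and 16.7% of those without Dcx.

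Sox4 and Sox11 were highest in OPC-like cells but were also found in tanycyte-like cells above the erythrocyte-like level. Sox4 was at 369 CPM (325 to 416) in OPC-like cells, at 143 CPM (111 to 182) in pars tuberalis cell-like, 112 CPM (94.1 to 132) in VLMC-like and 103 CPM (89.0 to 119) in tanycyte-like cells, the last 3 with overlapping intervals. In neuron-like cells it was at only 24.7 CPM (16.99 to 34.7). Sox11 was at 100.7 CPM (78.6 to 127) in OPC-like, 62.8 CPM (50.1 to 77.8) in neuron-like and 51.0 CPM (41.2 to 62.5) in tanycyte-like cells, with no UMI in macrophage or microglia-like, oligodendrocyte-like or NK or T cell-like cells, which allows up to 5.44, 5.38 and 20.6 CPM. Sox11 was seen in 37.4% of tanycyte-like cells and Sox4 in 52.0%, against 0.830% of erythrocyte-like cells for each.

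Tubb3 and Stmn1 marked neuron-like cells and then the oligodendrocyte lineage. Tubb3 was at 364 CPM (333 to 398) in neuron-like, 226 CPM (192 to 264) in oligodendrocyte-like and 180 CPM (150 to 214) in OPC-like cells. Stmn1 was at 1526 CPM (1461 to 1594) in neuron-like and 1412 CPM (1325 to 1504) in oligodendrocyte-like cells, intervals that overlapped, and at 469 CPM (420 to 523) in OPC-like cells. Tanycyte-like cells were at 6.04 CPM (3.01 to 10.8) for Tubb3, which overlapped the erythrocyte-like 4.29 CPM (1.96 to 8.14), and at 80.7 CPM (68.2 to 94.8) for Stmn1.

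Nes was highest in tanycyte-like cells, while Vim was spread over more clusters. Nes was at 75.2 CPM (63.1 to 88.9) in tanycyte-like cells, which held 65.9% of its UMIs, and at 32.5 CPM (17.3 to 55.6) in ependymal cell-like cells. It was found in 38.0% of tanycyte-like cells and 2.07% of erythrocyte-like cells. In OPC-like cells Nes was at 9.93 CPM (3.99 to 20.5). Vim was broad, with 699 CPM (582 to 832) in NK or T cell-like, 513 CPM (445 to 588) in ependymal cell-like, 445 CPM (364 to 538) in the unnamed cluster, 349 CPM (322 to 377) in tanycyte-like and 238 CPM (211 to 266) in VLMC-like cells. In OPC-like cells Vim was at 51.1 CPM (35.8 to 70.7).

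**Figure D3:**
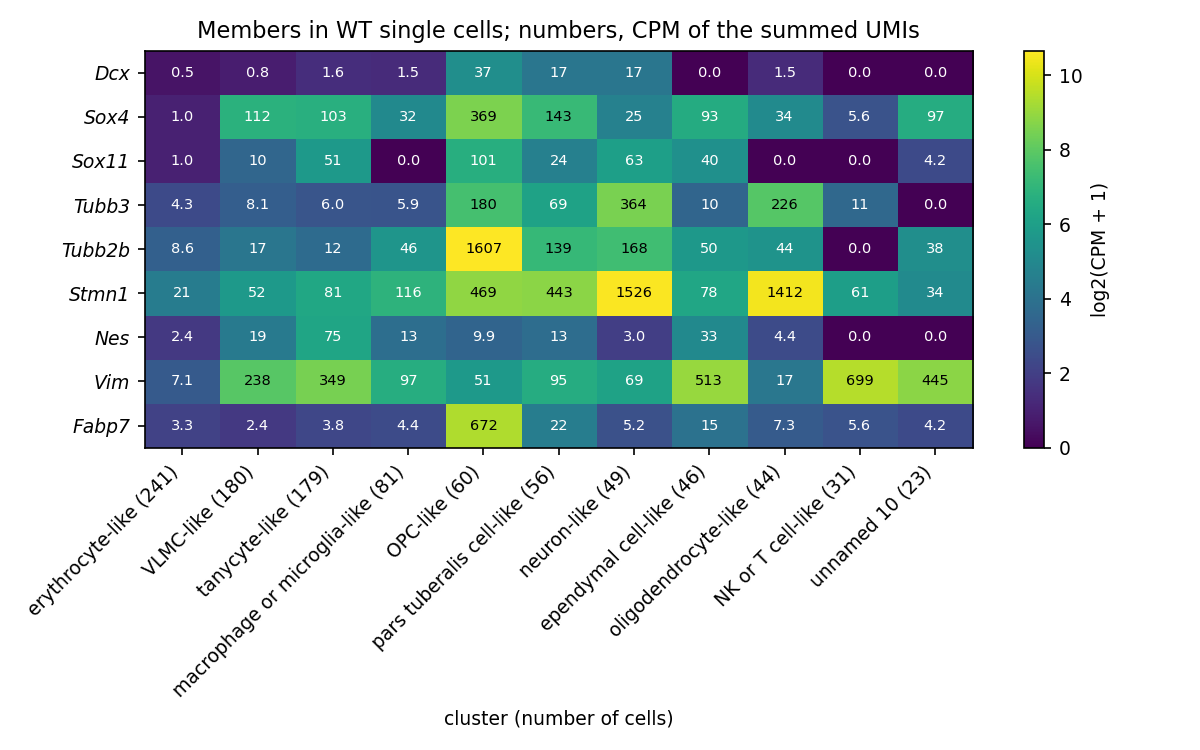
The heat map gives the CPM of each member (rows) in each WT single-cell cluster (columns, with the number of cells), coloured by log2(CPM + 1). The OPC-like column is the highest of its row for Dcx, Sox4, Sox11, Tubb2b and Fabp7, with 1607 CPM for Tubb2b, and the tanycyte-like column is the highest only for Nes.

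A clustering resolution of 1.2 in place of 0.8 split the OPC-like cells into parts of 38 and 22 cells, and the members divided between them. The 38 cells of cluster 11, led by Top2a, Gsx1 and Ccnb1, had 6 of 7 OPC markers but none among their 10 leading genes, and so no name of their own. They carried Pdgfra at 542 CPM (471 to 620) and Top2a at 623 CPM (548 to 706). Pdgfra was found in 35 of these 38 cells and Top2a in 13. The 22 cells of cluster 14, led by Enpp6, had Gpr17 at 1260 CPM (1139 to 1391), Pdgfra at 6.41 CPM (0.777 to 23.2) and no Top2a UMI, which allows up to 11.8 CPM. Enpp6 and Gpr17 are known from precursors committed to become oligodendrocytes. Dcx was at 63.6 CPM (41.1 to 93.9) in cluster 11 and 3.21 CPM (0.0812 to 17.9) in cluster 14, and 25 of the 26 Dcx UMIs were in the former. Sox11 was at 155 CPM (119 to 199) against 32.1 CPM (15.4 to 59.0). Fabp7 was at 1030 CPM (932 to 1135) against 221 CPM (172 to 280), and Stmn1 at 809 CPM (722 to 903) against 41.7 CPM (22.2 to 71.3). Tubb3, the neuronal tubulin, was at 257 CPM (209 to 312) against 83.4 CPM (54.5 to 122). In the other direction, Sox4 was at 201 CPM (159 to 250) in cluster 11 and 580 CPM (499 to 671) in cluster 14, and Tubb2b at 865 CPM (775 to 962) and 2542 CPM (2369 to 2726). Dlx1 and Dlx2 had no UMI in either part, which allows up to 9.38 CPM in cluster 11 and 11.8 CPM in cluster 14.

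**Figure D4:**
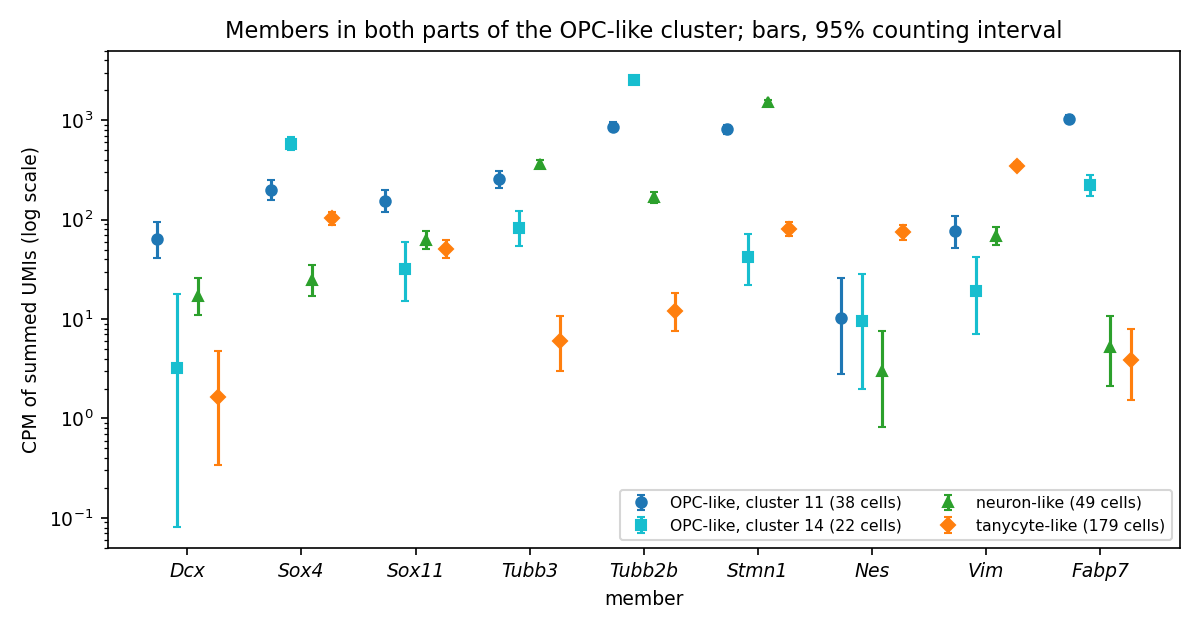
CPM of each member (log axis) in both parts of the OPC-like cluster, in neuron-like and in tanycyte-like cells, with exact Poisson 95% intervals. Dcx, Sox11, Tubb3, Stmn1 and Fabp7 are higher in cluster 11, Sox4 and Tubb2b are higher in cluster 14, and Nes and Vim are highest in tanycyte-like cells.

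Genes of the wider lists fell to different cells. Of all 13125 genes with 20 or more UMIs, 15.4% were highest in neuron-like, 8.1% in oligodendrocyte-like, 17.6% in OPC-like and 8.59% in tanycyte-like cells. Of 28 immature neuron genes with 20 or more UMIs, 9 were highest in neuron-like cells, 6 in oligodendrocyte-like, 4 in OPC-like and 1 in tanycyte-like cells. The alpha-tubulin Tuba1a, the most abundant of them in both OPC-like and neuron-like cells, was at 9040 CPM (8819 to 9265) and 1367 CPM (1305 to 1431), and Map1b, a microtubule-associated protein, led in tanycyte-like cells at 1132 CPM. Of 26 progenitor genes, 9 were highest in tanycyte-like and 7 in OPC-like cells. Dbi (2085 CPM) was the most abundant of the list in tanycyte-like cells and the tetraspanin Cd9 (4866 CPM) in OPC-like cells. In neuron-like cells the most abundant was Fabp5, a relative of Fabp7, at 193 CPM against 182 CPM in all other cells. Of the 26, 0 were highest in neuron-like cells. Of 21 proliferation genes, 19 were highest in OPC-like cells, with Ube2c at 518 CPM there, while Pcna was the most abundant of the list in tanycyte-like (56.5 CPM) and neuron-like cells (32.9 CPM). Of 18 mature neuron genes, 14 were highest in neuron-like cells, with Npy at 8913 CPM. Meg3, by contrast, was at 7878 CPM in tanycyte-like and 380 CPM in OPC-like cells. The mature neuron and proliferation lists were kept in the clustering. Npy, Agrp and Gad2 were among the leading genes of the neuron-like cluster, and Top2a and Ccnb1 among those of the OPC-like cluster. The counts of 14 and 19 are therefore not independent of how the clusters were formed. All neuron markers used to name clusters are also in the mature neuron list, so the count of 14 is not independent of the naming either. Of 8 tubulin and stathmin relatives, whose stathmins are also in the immature neuron list, 3 were highest in OPC-like cells, among them Tubb5 at 1319 CPM. Stmn3 led in neuron-like cells at 1140 CPM and Tubb4b in tanycyte-like cells at 608 CPM.

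Likeness of pattern was measured by Pearson's r of log2(CPM + 1) over the 11 clusters, among 8794 genes with 100 or more UMIs. The clusters share 1 library and differ in depth, and r is a description. The genes most like Dcx were Reep1 (r = 0.949), Rprm (0.944) and Susd4 (0.941), and those most like Fabp7 were Timp4 (0.907), Lhfpl3 (0.904) and Cdc20 (0.889). Tubb2b was most like Gria4 (0.918), Gng3 (0.917) and Camsap2 (0.896). Sox4 was most like Tars (0.961), Desi2 (0.954) and Prdx4 (0.946), and Sox11 was most like Rimklb (0.952), Samd14 (0.952) and Msi1 (0.948), an RNA-binding protein of progenitors. Tubb3 was most like Pcdh17 (0.97), Lhfpl4 (0.956) and Ank3 (0.955). Stmn1 was most like Rundc3a (0.939), Pak7 (0.935) and Agtpbp1 (0.934). Nes was most like Col27a1 (0.97), Kctd12b (0.923) and Eva1a (0.922), and Vim was most like Tap2 (0.941), Ldha (0.939) and Pxmp4 (0.937). Between members, r was highest for Tubb3 and Stmn1 (0.934) and for Dcx and Tubb2b (0.796), and lowest for Tubb3 and Vim (-0.441).

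Set side by side, the WT cells and the bulk groups gave the following order. The 5 members highest in OPC-like cells had bulk log2 fold changes from 1.31 to 3.79, and the other 4 from -0.13 to 0.93. The intervals of these sets overlapped, with Sox4 at -0.10 to 2.72 and Vim at 0.18 to 1.69. For Dcx, the OPC-like CPM interval overlapped those of pars tuberalis cell-like and neuron-like cells. Of the 5 members highest in OPC-like cells, 3 lay higher in every mutant library than in every control. Among all 1622 genes highest in OPC-like cells with 100 or more UMIs, 8.75% did so and the median log2 fold change was 0.05. Dcx, with 64 UMIs, is under that floor, and without it Sox11 and Tubb2b are 2 of 4 members. Over all 8691 such genes of any cluster, 4.56% lay higher in every mutant and the median was -0.07. The members were chosen with earlier results of these data known, so this order is not independent evidence. No mutant single-cell library was analysed here, and the WT library gave no astrocyte-like cluster.

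**Figure D5:**
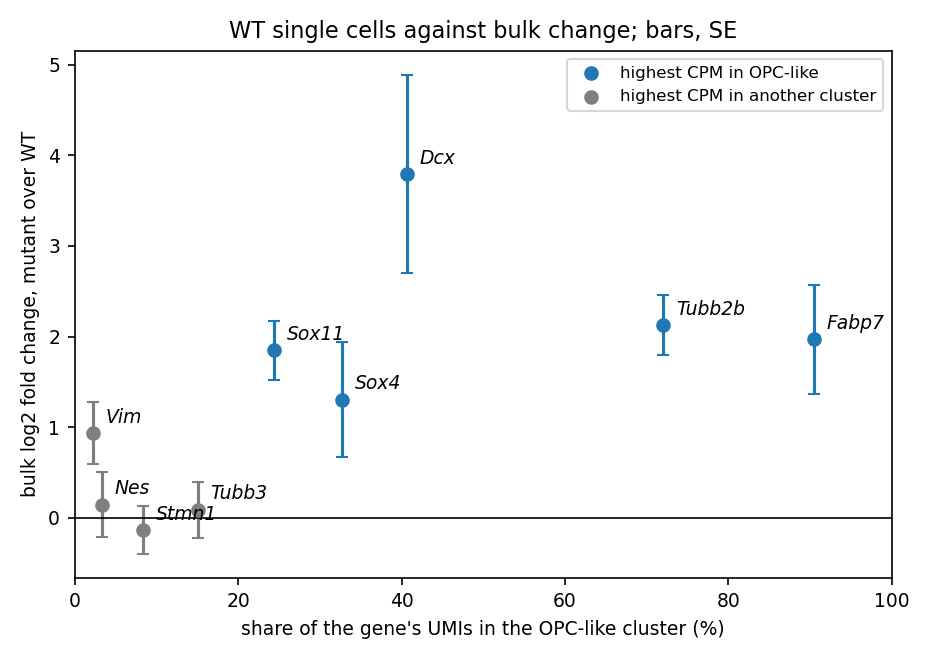
Each point is a member, with the share of its WT single-cell UMIs found in the OPC-like cluster on the horizontal axis (%) and its bulk log2 fold change of mutant over WT on the vertical axis, with the SE as a bar. Fabp7 (90.5%) and Tubb2b (72.0%) are farthest right, Dcx (3.79) is the highest, and the 4 members under 20% lie below a log2 fold change of 1.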

How the data were processed

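Single-cell values were UMI counts per gene and cell that the authors deposited for the cells called by Cell Ranger (2.0.1 per the submitters' processing notes, which also list GRCm38 and DESeq2). Bulk values were raw read counts per Ensembl gene that the authors deposited for 7 Smart-seq2 libraries. The aligner, the counter and its strand setting are not given in the sources used here. All 55450 bulk identifiers matched GENCODE M21, and 0 columns were left unused.

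Members and lists were chosen with earlier results of these data known. Genes named beside the members were the 2 highest and 2 lowest log2 fold changes of each list, the list gene with the highest CPM in tanycyte-, OPC- and neuron-like cells, and the 3 genes most like each member. Tubb2a, the OPC markers, Braf and the sex-linked genes were named after their values were seen.

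Bulk counts were tested over all genes with edgeR 4.0.16 in R 4.3.3 (TMM scaling, filterByExpr, quasi-likelihood test, adjusted p below 0.05), with no covariate. Intervals are 95%. Alternatives were DESeq2 1.42.0, limma-voom (limma 3.58.1), other scalings and filters, the number of detected genes as a covariate, a replicate block, each library left out, and, chosen after seeing the data, the libraries with at least 100 Y-linked counts. Whether mice shared litters is not given in the sources used here. The p-values set the group difference against the spread between libraries within groups. That spread includes differences in detected genes and, among the mutants, in sex.

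Cells were clustered in Seurat 5.3.0 with 20 components at resolution 0.8, using variable genes (mean 0.02 to 8, dispersion above 0.5). Left out were the members and the immature neuron, progenitor, tubulin and stathmin lists, but not the mature neuron and proliferation lists. A cluster was named where at least 3 markers of a type had 3 times the CPM of other cells, at least 1 of them was among its 10 leading genes, and no other type had more there, a rule set after seeing the data. The VLMC-like cluster also carried 7 endothelial and 5 mural markers. Scrublet, through scanpy 1.11.5, called 3 cells (0.303%) doublets, and they were kept. Cluster CPM has exact Poisson intervals and shares of cells are of cells with at least 1 UMI. Intervals cover counting error only. The steps were tested on simulated data.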

Additional observations from a re-analysis of the deposited data

Results flagged for a closer look

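Mutant replicate 1 stood apart from the other mutants for both Hes genes. Hes1 was at 38.2 CPM and Hes6 at 109 CPM in that library, and the gap to the next mutant was over the 95% critical value of Dixon's test for 4 samples in both. Of 38 genes and list sums tested in this way, these 2 passed, and chance alone flags about 1 in 20. Among the members, 0 of 9 had such a library.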

How the results depend on the processing

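edgeR's count of 0 members called held in every leave-one-out fit (0 to 0) and with every scaling tried, and changed to 3 with DESeq2, 4 with no filter on low counts (Dcx, Sox11, Tubb2b and Fabp7) and 1 with at least 10 counts in every library (Tubb2b, with Dcx no longer tested). The count over all genes went from 0 to 376 with DESeq2, 240 with no filter, 13 with at least 10 counts, 3 with library sizes alone, and 1 each with upper-quartile scaling, RLE size factors and the detected-genes covariate, and stayed 0 in the 5 libraries with Y-linked counts, a setting chosen after seeing the data. It ranged from 0 to 45 over the leave-one-out fits, with 45 without WT 1 and 16 without WT 3. Called immature neuron genes went to 1 (Dlx2) with DESeq2 and with no filter. Called progenitor genes went to 2 (Ptprz1 and Hes1) with no filter and to 1 (Ptprz1) with DESeq2, library sizes alone and at least 10 counts, and ranged from 0 to 1 over the leave-one-out fits. Called mature neuron genes went to 2 with DESeq2 (Ghrh and Meg3) and to 2 with no filter (Ghrh and Pomc). The cause of these changes was not tested. The count of unadjusted p-values under 0.05 was 1661 of all genes with edgeR and 2306 with limma-voom, which called 0. In the edgeR fit without WT 1 it was 6910 of 23560 genes, 5172 of them higher in mutants. The detected-genes covariate changed the edgeR counts higher in mutants at that p. Members went from 5 to 4, immature neuron genes from 11 to 7, progenitor genes from 5 to 6 and all genes from 865 to 635.

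Log2 fold changes that turned sign were those of Tubb3 (-0.08 without WT 1, -0.13 without mutant 2), Stmn1 (0.028 with library sizes alone, 0.12 with the detected-genes covariate) and Nes (-0.028 without WT 2). Over the leave-one-out fits Tubb3 ran from -0.13 to 0.25 and Nes from -0.028 to 0.38. Dcx stayed between 2.79 and 5.07, Sox11 between 1.73 and 2.05, Tubb2b between 1.93 and 2.31 and Fabp7 between 1.58 and 3.05 over all alternatives. The median of all genes moved from 0.13 to 0.63 with DESeq2, 0.59 with no filter and 0.43 without WT 1. Same-numbered WT and mutant libraries did not deviate together (r = -0.45, -0.01 and -0.23). With groups of 3 and 4 libraries this cannot decide whether the numbers pair the mice, and no pairing is stated. The replicate block gave 0 called members and 0 called genes. The bulk groups hold 3 and 4 libraries and Dcx has few reads, which limits the precision, and 3 UMIs in tanycyte-like cells are 1.65 CPM.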
